A study of Homo sapiens with 23 samples.

Results

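The regions described here are stretches of chromatin where LSD1 was called in all 3 LSD1 peak lists of the series, and where neither LSD1+8a nor supervillin (SVIL) was called. They are 2498 of the 32188 regions obtained by merging the peaks of 5 lists wherever peaks overlapped by at least 1 bp (7.76%, 95% interval 7.47 to 8.06). A member had a peak in the LSD1 lists of LSD1+8a knockdown cells at day 0, control cells at day 3 and control cells at day 0, and no peak in the LSD1+8a and SVIL lists of control cells at day 3. The members were chosen by the peak calls themselves, so that the presence of LSD1 in the 3 lists and the absence of LSD1+8a and SVIL are not findings. They are called constant LSD1 regions below, where constant refers to the calls and not to the level of binding.

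LSD1 (KDM1A) is a flavin-dependent demethylase that removes methyl groups from lysines of histone H3, and it works in complexes with the corepressor CoREST and histone deacetylases at promoters and enhancers. In neurons an extra microexon, exon 8a, gives the splice isoform LSD1+8a, whose choice of substrate is reported to differ from that of the common form. SVIL is an actin-binding protein of the cell cortex that is also found in nuclei, and the series' design names it as a partner of LSD1+8a. An LSD1 peak is a place where DNA was recovered with an antibody to LSD1. It does not show whether the enzyme was active there.

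The series used ChIP-seq to map proteins on the chromatin of SH-SY5Y, an established human neuroblastoma line that acquires neuronal traits after retinoic acid and brain-derived neurotrophic factor (BDNF). It has 23 samples. The lists used come from 5 of them, with 1 library per group. The question put to them here is where LSD1 is found irrespective of maturation in control cells and of LSD1+8a knockdown at day 0. The first group was LSD1 ChIP in cells infected with LSD1+8a shRNA at day 0 of BDNF. The next group was LSD1 ChIP in cells infected with control shRNA at day 3 of BDNF, and its comparison was LSD1 ChIP in control shRNA cells at day 0. LSD1+8a ChIP, with a polyclonal antibody made in the submitters' laboratory, and SVIL ChIP were both from control shRNA cells at day 3. The protocols describe plating on collagen, 10 µM retinoic acid for 4 days and 50 ng/mL BDNF without serum for 3 days, so day 0 cells had not received the BDNF. All groups were of 1 cell line, the controls carried a shRNA too, and the lists do not give the degree of knockdown. The LSD1 antibody is labelled as against LSD1, and whether it also bound the LSD1+8a isoform is not stated in the labels.

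With 1 library per group there is no replicate spread, so that every comparison below is between libraries and carries no test. Total reads per library were not given in the sources used here, and the lists differ in size, with 10248 peaks for the knockdown at day 0, 20748 for control day 3 and 16882 for control day 0. The LSD1+8a list has 3378 peaks and the SVIL list 1452. Intervals are exact (Clopper-Pearson) binomial ones or, for ratios of tags, exact intervals from 2 counts, and they cover counting error only. The titles of both day 0 libraries carry a library number, and those of the day 3 libraries do not. Any difference in how these libraries were made cannot be told apart from the day of BDNF.

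Of the 3693 regions shared by the 3 LSD1 lists, the constant LSD1 regions made up 67.6% (66.1 to 69.1). Regions without LSD1+8a and SVIL were a larger share where fewer LSD1 lists had a peak, at 85.1% of the 8896 regions in 2 LSD1 lists and 94.4% of the 18640 regions in 1. Over all 32188 regions the share was 85.9%. That total includes regions without any LSD1 peak, which hold LSD1+8a or SVIL by construction. LSD1+8a alone was called in another 844 (22.9%), SVIL alone in 212 (5.74%) and both in 139 (3.76%). The constant regions held 2536 peaks of the knockdown list (24.7% of it), 2521 peaks of the control day 3 list (12.2%) and 2569 peaks of the control day 0 list (15.2%). Together they covered 3.70 Mb of the hg19 genome, with a median width of 1353.5 bp and a range of 475 to 5400 bp.

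The limit of 1 bp that separates members from non-members decided few regions. Among the 1195 regions of the 3 LSD1 lists that did hold LSD1+8a or SVIL, the median overlap with that peak was 789 bp, and it was under 100 bp in 2 of them. The narrowest was at chr20:35491319-35492941, where an LSD1+8a peak of 24 tags overlapped by 32 bp. On the inner side, the member closest to either protein was chr4:159592747-159593953, which lay 32 bp from the nearest LSD1+8a peak. It had 63 tags in the knockdown, 82 tags at control day 3 and 65 tags at control day 0, so a well-covered LSD1 region stood right beside an LSD1+8a peak.

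LSD1 peaks in the constant regions were of middling size. The tags of a peak are the authors' whole-number count of reads in it, with no normalisation recorded, and a region with several peaks of a list is represented by the one with the highest score. The median was 30 tags in the knockdown (range 10 to 256), 68 tags at control day 3 (19 to 334) and 36 tags at control day 0 (10 to 278). All peaks of the same lists had medians of 28, 50 and 26 tags in the same order, so members lay above the list median in each. Median peak length was 800 bp in the knockdown, 1202.5 bp at control day 3 and 968.5 bp at control day 0. The authors' fold enrichment had medians of 8.94, 17.54 and 9.905 in members in that order, against 9.13, 17.05 and 9.3 over all peaks of each list. Members' peaks were thus longer and had more tags than the list medians, while fold enrichment was near that of the list as a whole. More tags and longer peaks than the list medians were in part also seen in the patterns most like the members. The 2774 regions in both day 0 lists alone had medians of 33 tags and 815 bp in the knockdown. At control day 0 they had 33 tags and 909 bp. The 4014 regions on both control days alone were above the list medians at control day 3, with 59 tags and 1131 bp. At control day 0 they were below, with 23 tags and 798.5 bp against 26 tags and 834.5 bp over all peaks. All these values come from the lists that the rule used.

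**Figure D1:**
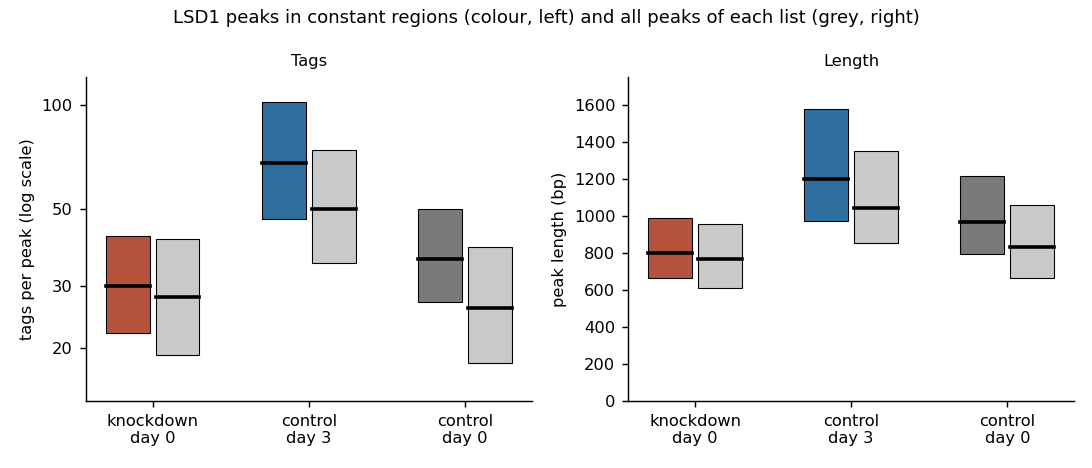
Tags per peak (left, log scale) and peak length in bp (right) for LSD1 peaks in the 2498 constant regions, drawn in colour, and for all peaks of the same list, drawn in grey to their right. Boxes run between quartiles and the black bar is the median; member medians of 30, 68 and 36 tags lie above the list medians of 28, 50 and 26 tags.

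The regions were not confined to the strongest peaks. Ranked by score within each list, the median member stood 45.7% from the top of the knockdown list, 34.9% from the top of the control day 3 list and 27.9% from the top of the control day 0 list. The top 10% of the list held 255 members in the knockdown (10.2%), 495 at control day 3 (19.8%) and 532 at control day 0 (21.3%). In 44 regions (1.76%) LSD1 was in the top 10% of all 3 lists, and in 174 (6.97%) it was in the lower 50% of all 3. The lists differ in length, so a position describes a region within its own list.

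LSD1 peaks of the members had fewer tags at day 0 than those of regions in the 3 LSD1 lists that held LSD1+8a but not SVIL. At day 3 the measures differed in direction. The LSD1+8a and SVIL lists used are of day 3 only, also where LSD1 at day 0 is compared. Against the members' medians of 30 tags in the knockdown, 68 tags at control day 3 and 36 tags at control day 0, these 844 regions had 43, 63 and 46 tags in the same order. In score position the members' 45.7%, 34.9% and 27.9% from the top stood against 23.4%, 36.6% and 19.1%. At control day 3 the median fold enrichment was 17.54 in members and 19.055 in the 844 regions, and the upper quartile of tags was 102 in members and 103 in the 844 regions. The 3693 regions of the 3 LSD1 lists were also split by score into 4 classes of equal size. From the highest to the lowest class, the share without LSD1+8a and SVIL was 51.2%, 66.5%, 73.7% and 79.2% by the knockdown score. By the control day 0 score it was 55.5%, 69.0%, 71.4% and 74.6%. By the control day 3 score it was 57.03%, 74.3%, 68.5% and 70.7%, so that beyond the first class there was no steady rise. In a region of low score, an absent LSD1+8a or SVIL signal and one below the calling threshold cannot be told apart. The lowest score in the SVIL list was higher than the lowest score in each of the other lists. Absence of SVIL was therefore judged at a stricter score than absence of LSD1+8a or presence of LSD1.

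The strongest members can be read region by region. They were named by the worse of a region's ranks in the 3 lists. First was chr19:4791016-4792136, 1121 bp wide, with 124 tags in the knockdown, 215 tags at control day 3 and 145 tags at control day 0. It ranked 15, 45 and 12 by score in these lists, and its authors' fold enrichments were 42.86, 46.27 and 53.06. Next was chr12:88535352-88536557, with 117 tags in the knockdown, 189 tags at control day 3 and 144 tags at control day 0. The region chr16:70472749-70473806 had 87 tags in the knockdown, 133 tags at control day 3 and 76 tags at control day 0. In all 3 of these regions control day 3 had the most tags, and the day 0 libraries were close to each other.

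The fourth, chr19:5679422-5681947, was more even, with 152 tags in the knockdown, 147 tags at control day 3 and 138 tags at control day 0. The fifth, chr1:2457227-2458148, had 56 tags in the knockdown, 111 tags at control day 3 and 52 tags at control day 0. It had fewer tags than the 4 regions above, and its authors' folds were 59.48, 121.38 and 46.64 in these lists. The rest of the first 10 lay at chr19:3184733-3186376, chrX:108297214-108297982, chr10:104261592-104263337, chr12:49245490-49246719 and chr1:1051112-1052240. All 5 of these had at least 79 tags in the knockdown, at least 91 tags at control day 3 and at least 75 tags at control day 0. The widest member was chr2:8816408-8821807, of 5400 bp, which joined 3 knockdown peaks, 2 control day 3 peaks and 3 control day 0 peaks. Its best peaks had 37 tags in the knockdown, 77 tags at control day 3 and 66 tags at control day 0. Their authors' folds were 8.22, 7.31 and 7.37 in these lists, each below the members' median.

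Within a region the LSD1 peaks of the 3 libraries overlapped, which follows in large part from merging at 1 bp of overlap. The rule did not use the summits, though overlapping peaks limit how far apart summits can lie. In 2391 members (95.7%) each list gave 1 peak. The peaks shared a core of 715 bp (median), and in 61 members (2.44%) the 3 best peaks shared no base. The 3 summits fell within 100 bp of each other in 1134 members (45.4%), and they spread over more than 500 bp in 313 (12.5%). Between summits the median distance was 55 bp for the knockdown and control day 0, 65 bp for control day 3 and control day 0, and 67 bp for the knockdown and control day 3. Regions with LSD1+8a had shorter distances of 40, 54 and 57 bp for the same pairs. Chromatin was sheared to fragments of 300 to 800 bp, so these median distances are short beside a fragment and are not read as separate positions. Summits of peaks with few tags are placed less exactly.

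Peaks also nested by library. The knockdown peak lay wholly inside the control day 0 peak in 1128 members (45.2%), and wholly inside the control day 3 peak in 1670 (66.9%). The control day 0 peak lay inside the control day 3 peak in 1260 (50.4%), and the day 3 peak alone spanned the whole region in 1053 (42.2%). Depth is unknown here, so a wider called peak is not shown to be wider binding.

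The order of the regions by tags was shared between the day 0 libraries and much less with day 3. Across the 2498 members, Spearman's rho of tags was 0.69 between the knockdown and control day 0, 0.33 between control day 3 and control day 0, and 0.17 between the knockdown and control day 3. By score the same pairs gave 0.45, 0.13 and -0.03, and by peak length 0.51, 0.42 and 0.30. The 844 regions with LSD1+8a gave 0.81, 0.47 and 0.34 by tags. These values describe regions that share a library on each axis and were all chosen for passing a peak threshold. By score, 718 members (28.7%) were in the upper 50% of all 3 lists. Another 258 (10.3%) were in the upper 50% at control day 3 and in the lower 50% of both day 0 lists, and 412 (16.5%) showed the opposite arrangement.

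**Figure D2:**
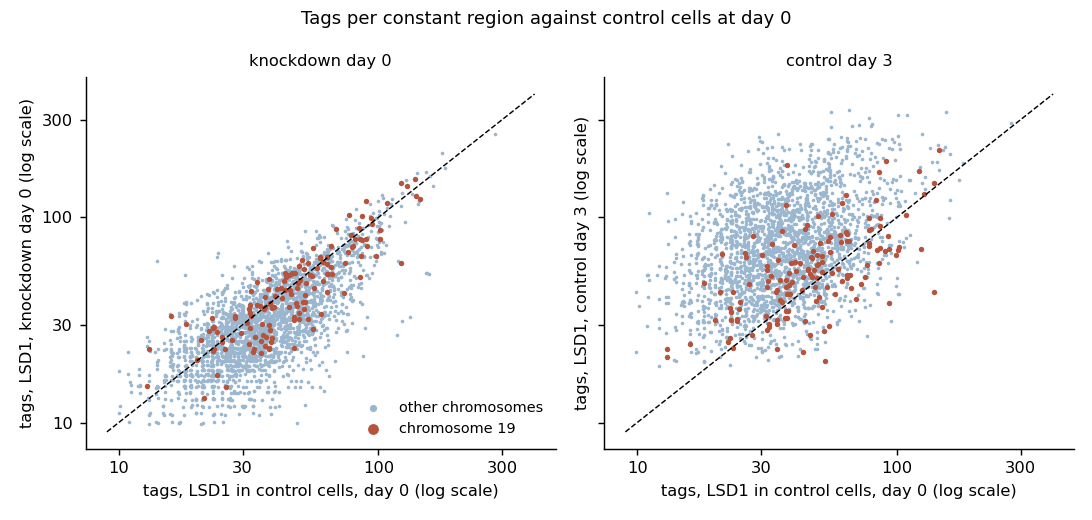
Tags of each constant region in the knockdown at day 0 (left, vertical axis) and at control day 3 (right, vertical axis) against tags at control day 0 (horizontal axis), all on log scales with a small random offset for visibility. Each point is 1 of 2498 regions, those on chromosome 19 are in red, and the dashed line marks equal tags; the left cloud follows the line (rho 0.69) and the right one is broad (rho 0.33), with chromosome 19 low in it.

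Tags per kilobase of peak were compared with control day 0. The median ratio of members was 1.03 for the knockdown (quartiles 0.895 and 1.18) and 1.48 for control day 3 (1.15 and 1.97). Over all regions with a peak in both lists of a pair, the median was 1.06 for the knockdown (7070 regions) and 1.63 for control day 3 (8277 regions). Because depth is unknown, ratios were set relative to these medians. On that scale 0 of 2498 members were more than 2-fold higher in the knockdown (interval up to 0.148%), where the background over all regions in both lists was 0.113%. Another 3 members (0.120%) were more than 2-fold lower in the knockdown, against a background of 0.127%. At control day 3, 37 members (1.48%) were more than 2-fold higher, against a background of 2.24%, and 118 (4.72%) were more than 2-fold lower, against a background of 3.2%. Both ratios were within 2-fold in 2341 members (93.7%), close to the 91.7% of all 3693 regions in the 3 LSD1 lists. Both ratios share the control day 0 library. A region needs a called peak in each list to have a ratio, so large changes are missing by construction from every one of these counts.

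These counts depended on how tags were scaled. With tags per peak, not divided by length, 25 members were more than 2-fold higher in the knockdown, against a background of 1.43%, and 129 were lower, against a background of 2.97%. For control day 3 the same scale gave 169 members higher, against a background of 9.57%, and 448 lower, against a background of 12.1%. With ratios per kilobase set relative to the members' own median, 2 members were higher in the knockdown (background 0.198%) and 2 lower (background 0.099%). At control day 3 this centring gave 82 members higher (background 4.35%) and 64 lower (background 1.85%). Centring on the members evens out their higher and lower counts by construction, so the split is to be read against the background on the same scale.

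The 118 members that were more than 2-fold lower at day 3 per kilobase, and the 37 that were higher, were selected on the ratio of control day 3 to control day 0, so their control values follow in part from the selection. The lower members' median tags were 55 in the knockdown, 48 at control day 3 and 57 at control day 0, and they stood at a median of 5.06% from the top of the control day 0 list. Chromosome 19 held 23 of them (19.5%, 12.8 to 27.8). Among the 2343 members within 2-fold, 121 were on chromosome 19 (5.16%, 4.30 to 6.14). The 37 members that were higher at day 3 had medians of 25 tags in the knockdown, 130 tags at control day 3 and 25 tags at control day 0, and 1 of them was on chromosome 19.

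Single regions show both ends of the day 3 comparison. The regions of this paragraph with the highest and lowest ratios were picked after their values were seen. The highest ratio per kilobase, 5.06 for control day 3 over control day 0, was at chr4:7880515-7881678, with 12 tags in the knockdown, 166 tags at control day 3 and 22 tags at control day 0. Its ratio of tags, not divided by length, was 7.55 (4.82 to 12.4). The region chr1:49119822-49121197 had the most day 3 tags of any member, with 47 tags in the knockdown, 334 tags at control day 3 and 65 tags at control day 0. The lowest ratio per kilobase, 0.379, was at chr5:81046596-81048615, with 106 tags in the knockdown, 68 tags at control day 3 and 96 tags at control day 0. Its ratio of tags was 0.708, and others had lower ones, such as chr2:74648285-74649889 with 0.420. In these first 3 regions both day 0 libraries were on the same side of the day 3 library.

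By rank, the largest gain at day 3 was at chr9:16156919-16158887, which had 17 tags in the knockdown, 119 tags at control day 3 and 15 tags at control day 0. It stood 3.82% from the top of the control day 3 list and 98.2% from the top of the control day 0 list. The largest loss was at chr18:54318080-54319041, with 65 tags in the knockdown, 33 tags at control day 3 and 67 tags at control day 0. It stood 99.9% from the top at day 3 and 2.41% from the top at day 0 of control cells. At chr6:112408308-112409641 the order was alike, with 81 tags in the knockdown, 40 tags at control day 3 and 62 tags at control day 0. Presence in all 3 lists thus went with positions at opposite ends of the day 3 and day 0 lists in these regions. They were named for that difference in rank, so their values follow in part from that choice.

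Fewer members were past 2-fold between the knockdown and control day 0 than between the control days, as was also so for all regions. The regions of this paragraph were named for their rank differences between the knockdown and control day 0. Their ratios therefore follow in part from that choice. The largest gain in rank was at chr12:56551076-56552642, with 61 tags in the knockdown, 54 tags at control day 3 and 14 tags at control day 0. Its ratio of tags, knockdown over control day 0, was 4.36 (2.41 to 8.44). For control day 3 over control day 0 it was 3.86 (2.11 to 7.52), so by tags control day 0 stood apart. The control day 0 peak was shorter, so that per kilobase the knockdown ratio was 1.68. The largest loss in rank was at chr5:57877566-57879344, with 32 tags in the knockdown, 95 tags at control day 3 and 60 tags at control day 0. At chr17:76512696-76514278 there were 14 tags in the knockdown, 70 tags at control day 3 and 62 tags at control day 0, a ratio of the knockdown over control day 0 of 0.226 (0.117 to 0.408). There the knockdown peak was 446 bp long and the control day 0 peak 1467 bp, and per kilobase the ratio was 0.743.

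The 3 members past 2-fold lower per kilobase in the knockdown were picked after their values were seen. The first, chr4:146859698-146860445, had 22 tags in the knockdown, 48 tags at control day 3 and 36 tags at control day 0. The second, chr17:7122670-7124125, had 34 tags in the knockdown, 75 tags at control day 3 and 69 tags at control day 0. The third, chr1:230077024-230080502, had 38 tags in the knockdown, 216 tags at control day 3 and 61 tags at control day 0. Their relative ratios lay between 0.473 and 0.489, just past the limit, and for the first the interval of the ratio of tags ran from 0.342 to 1.07.

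Constant regions were spread over the whole genome, with a larger share on chromosome 19 than all regions had. It held 145 members (5.80%, 4.92 to 6.79), against 3.75% of all 32188 regions. It held 9.36% of the regions with LSD1+8a and 9.63% of the 2774 regions called in both day 0 LSD1 lists and no other. It held 1.67% of the 4014 regions called on both control days and in no other list. The members thus stood between the pattern that requires the day 0 libraries and the pattern that requires the control days.

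On chromosome 19 the members had more tags at day 0 and fewer at day 3 than elsewhere. Median tags of the 145 regions were 42 in the knockdown, 54 at control day 3 and 47 at control day 0. The 2353 members on other chromosomes had 30 tags in the knockdown, 70 tags at control day 3 and 35 tags at control day 0. The 145 regions stood 22.0% from the top of the knockdown list, 43.5% from the top at control day 3 and 9.71% from the top at control day 0, where members elsewhere stood 47.4%, 34.4% and 29.1% from the top. At control day 3 the chromosome 19 peaks were also shorter, with a median of 986 bp against 1225 bp elsewhere. The day 3 density and fold enrichment were close, at 52.6 tags per kilobase and a fold of 17.86 on chromosome 19, and 54.02 tags per kilobase and a fold of 17.52 elsewhere. When members were split by score into 4 classes of equal size, 13.1% of the highest class by control day 0 score were on chromosome 19, and 2.24% of the lowest. By knockdown score these shares were 12.3% and 1.28%. By control day 3 score the order was turned round, with 3.36% in the highest class and 7.68% in the lowest.

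**Figure D3:**
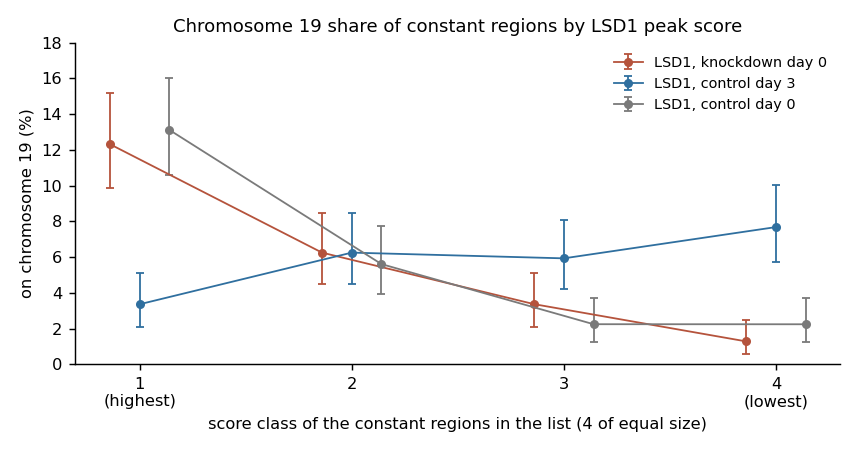
Share of constant regions on chromosome 19 (vertical axis, %) in 4 classes of equal size of the 2498 regions by LSD1 peak score in each list (horizontal axis), with exact 95% binomial intervals. The share was largest in the highest class in both day 0 lists (12.3% in the knockdown, 13.1% in control cells), and in the lowest class at control day 3 (7.68%).

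The day 3 ratio differed between chromosomes more than the knockdown ratio did. The median ratio of tags per kilobase, control day 3 over control day 0, was 1.13 on chromosome 19, 1.20 on chromosome 22, 1.26 on chromosome 21, 1.27 on chromosome 16 and 1.32 on chromosome 17. At the other end it was 1.76 on chromosome 8, 1.72 on chromosome 9, 1.66 on chromosome 4 and 1.65 on chromosomes 3 and 13. The medians of the knockdown over control day 0 spanned 0.963 on chromosome 18 to 1.09 on chromosomes 15 and 19 among chromosomes with at least 19 members.

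**Figure D4:**
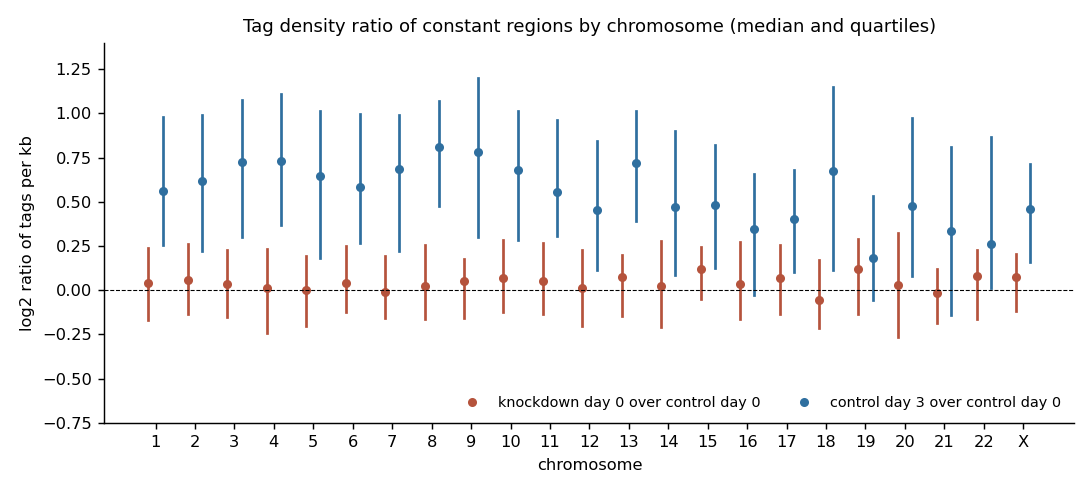
Log2 ratio of LSD1 tags per kilobase in constant regions by chromosome, for the knockdown at day 0 over control day 0 (red) and control day 3 over control day 0 (blue). Points are medians over regions, lines run between quartiles and the dashed line marks equal density; blue medians are lowest on chromosome 19 (ratio 1.13) and highest on chromosome 8 (1.76), while red medians stay near the line.

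Whether an LSD1 region shared by the 3 lists lacked LSD1+8a and SVIL also varied by chromosome. On chromosome 18, 56 of 61 such regions were members (91.8%, 81.9 to 97.3), and on chromosome 13, 74 of 84 (88.1%, 79.2 to 94.1). Both intervals lie above the 67.6% of the whole genome, as do those of chromosome 5 (78.4%, 71.9 to 84.0) and chromosome 3 (75.6%, 69.1 to 81.3), and that of chromosome 4 (75.2%) by a margin that rounding hides. On chromosome 17 the count was 115 of 198 (58.1%, 50.9 to 65.0), an interval below it. Chromosome 19, with 145 of 233 (62.2%, 55.7 to 68.5), had an interval that spans the genome-wide value. The shares of 3 chromosomes were also taken within the upper and the lower 50% of the regions by knockdown score. In the upper 50%, 88.0% of regions on chromosome 18, 77.8% on chromosome 13 and 46.8% on chromosome 17 were members, against 58.8% in the genome. In the lower 50% the shares were 94.4%, 95.8% and 71.9% in the same order, against 76.4%. In the lower 50% the interval of chromosome 17 (61.4 to 80.9) spans the genome-wide value. These chromosomes were singled out from 24 after the shares were seen.

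**Figure D5:**
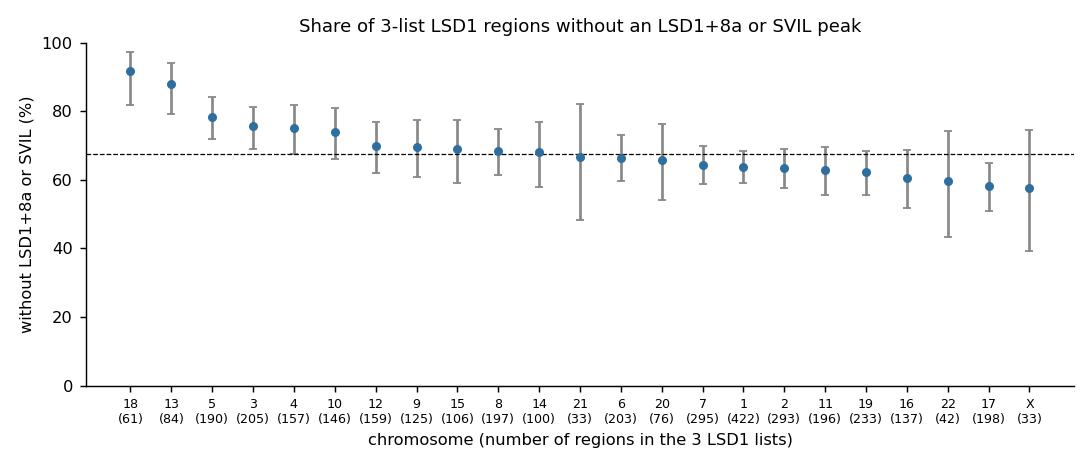
Share of the regions of all 3 LSD1 lists that held neither LSD1+8a nor SVIL (vertical axis, %), by chromosome with the number of regions in brackets, ordered from high to low; bars are exact 95% binomial intervals and the dashed line is the genome-wide 67.6%. The whole interval lies above the line for chromosomes 18 (91.8%), 13 (88.1%), 5 (78.4%), 3 (75.6%) and, narrowly, 4 (75.2%), and below it for chromosome 17 (58.1%).

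Constant regions mostly stood apart from each other, though not from other regions. Within 10 kb of another region of any list lay 1061 members (42.5%). The share was 31.5% of the 844 regions with LSD1+8a, 42.0% of the 4014 on both control days alone and 30.5% of the 2774 in both day 0 lists alone. Taking members at most 25 kb apart as a run, 2155 were single, 155 runs had 2 members, 7 had 3 and 3 had 4. The runs of 4 lay at chr14:104745326-104767237, chr19:7565639-7601074 and chr17:7094520-7143468. The run on chromosome 17 had no LSD1+8a peak and 1 SVIL peak within its span, and the other 2 had LSD1+8a peaks and no SVIL peak. Of 1366 windows of 1 Mb with a member, 740 held 1 and 59 held at least 5. The fullest was the window from 44 to 45 Mb of chromosome 19, where 12 of 28 regions were members, followed by 37 to 38 Mb of the same chromosome with 11 of 22.

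Distances from members to the nearest LSD1+8a or SVIL peak were mostly long, and overlap with such a peak was excluded by the rule. The median distance to an LSD1+8a peak was 205 kb, with 139 members (5.56%) within 10 kb and 14 within 1 kb. Regions called on both control days alone were farther, at 259 kb, and regions of both day 0 lists alone were nearer, at 155 kb. The 844 regions with LSD1+8a lay at a median of 133 kb from the nearest LSD1+8a peak outside them, with 5.57% within 10 kb. The nearest SVIL peak was at a median of 529 kb, and 89 members (3.56%) were within 10 kb of one. Of the 2774 regions of both day 0 lists alone, 1.51% were within 10 kb of an SVIL peak, and of the 4014 regions on both control days alone, 2.77%. For the 844 regions with LSD1+8a the median was 554 kb, with 1.78% within 10 kb. The nearest region of any list was closer, at a median of 13.97 kb. There were 32188 such regions against 3378 LSD1+8a peaks and 1452 SVIL peaks, so these distances differ with the number of targets. Next after the member on chromosome 4 at 32 bp, chr11:74925241-74926555 lay 170 bp and chr20:56620558-56622510 lay 208 bp from an LSD1+8a peak. With 27 and 16 tags in the knockdown, 88 and 76 tags at control day 3 and 37 and 23 tags at control day 0, both were weaker at day 0 than the first.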

How the data were processed

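Peak lists of 5 ChIP-seq libraries of SH-SY5Y cells were used, tied to samples by names that match the titles. CASAVA, Bowtie 1.0.0 and the builds hg19 and mm9 are credited to the submitters' processing notes. Chromosomes 20, 21 and 22 occur in the lists, and 14 peaks lie past the last chromosome 1 gene of GRCh38, so coordinates were read as hg19. Peak caller, calling threshold, matching input and read totals were not given in the sources used here. Per the file headers, the authors deposited the start, end, length, summit, tags and fold of each peak. The deposited tags are a whole-number count per peak, for which no normalisation by the authors is recorded. The authors' fold is a ratio whose denominator is not stated. The deposited score column has lost its name, and was used to rank peaks within lists. Regions were merged at 1 bp overlap with Python 3.11.15, pandas 2.3.3, numpy 2.4.6 and scipy 1.17.1, and the code was checked on simulated data. Members, patterns for comparison and alternatives were chosen with earlier results of these data known. Named regions are the 10 with the best worse rank, the 5 widest, the 5 with the largest rank differences each way and the 5 nearest to LSD1+8a or SVIL, of which the text gives the leading ones. Intervals are 95% and cover counting error only, since reads carry no molecular identifiers. Planned results on gene starts, gene lists, sequence and motifs were not run, because no hg19 genome or annotation was used here.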

Additional observations from a re-analysis of the deposited data

How the results depend on the processing

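Of the main results, 37 values under alternative settings stayed within their interval or within 1.5 times the count and 20 did not. Keeping the upper 50% of each list by score gave 879 members, 71.2% of regions in the 3 LSD1 lists, 9.10% on chromosome 19, 5.01% within 10 kb of LSD1+8a or SVIL (8.01% as reported), a median of 91 tags at control day 3, a median of 48 bp between the control day 3 and day 0 summits, and 49 members lower at day 3. Applying the lowest SVIL score to all lists gave 1270 members, 71.5%, 8.43%, 5.43%, 80 tags and 52.5 bp for the same results except the last. A reciprocal overlap of 50% gave 70.9% and 65 tags, and merging within 1 kb gave 6.87% within 10 kb and 70 bp. Leaving out members within 10 kb of LSD1+8a or SVIL gave 62.2% of the 3-list regions. Added after the data were seen, tags not divided by length gave 448 members lower at day 3, and centring on the members gave 64. Stricter scores leave fewer peaks by construction. The 62.2% is also lower by construction, since the members left out were still counted among the 3-list regions. For the other values the cause was not tested. No paired analysis was possible because each group has 1 library. Low tag counts limit single regions most, and unknown depth limits every level set between libraries.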

Other observations

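The 3 runs of 4 members differed in their values. On chromosome 14 the run spanned 21.9 kb, and its members had 30 to 50 tags in the knockdown, 63 to 80 tags at control day 3 and 37 to 60 tags at control day 0. On chromosome 19 it spanned 35.4 kb, with 23 to 100 tags in the knockdown, 23 to 99 tags at control day 3 and 13 to 86 tags at control day 0. On chromosome 17 it spanned 48.9 kb, with 34 to 91 tags in the knockdown, 60 to 104 tags at control day 3 and 28 to 120 tags at control day 0. The last run holds chr17:7122670-7124125, 1 of the 3 members that were more than 2-fold lower per kilobase in the knockdown.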
